A study of Arabidopsis thaliana with 24 samples.

Results

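The mitochondrial genome of Arabidopsis thaliana was followed through its transcripts in pistils before anthesis. Its members were all rows of the count table whose locus identifier begins with ATMG, 152 of 33055 genes, and 81 of them had at least 10 counts summed over the 24 libraries. A further 35 had 1 to 9 counts and 36 had none. Poly(A) RNA was sequenced from gynoecia of flowers at stages 11 and 12, with 4 libraries in each of 6 groups. The groups were phyB (the phyb-9 mutant, which lacks working phytochrome B, a receptor of red light and warmth) at hAT and at nAT, 35S::PIF4 (a line with the transcription factor gene PIF4 behind the constitutive viral 35S promoter) at hAT and at nAT, and wild-type Col-0 at hAT and at nAT. All plants were grown at nAT, 21 °C by day and 18 °C by night, until they began to flower. The hAT plants were then moved to 28 °C by day and 24 °C by night, under the same long days. The labels name the tissue as pistils, but their extraction notes give ovules as the material that RNA was taken from. The study's methods call the 4 libraries of a group biological replicates, without saying how plants were divided among them, and the p-values measure the spread between these libraries.

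Plant mitochondria keep a small genome of their own. It encodes the large, small and 5S ribosomal RNAs, some tRNAs and ribosomal proteins, a few core subunits of the respiratory complexes and of ATP synthase, factors for cytochrome c maturation, the intron maturase matR and many open reading frames (ORFs) of unknown function. All other mitochondrial proteins are encoded in the nucleus and imported. In plant mitochondria a poly(A) tail marks an RNA for decay by polynucleotide phosphorylase, unlike in the cytosol, where it stabilises an mRNA. Libraries selected with oligo(dT), as these were, therefore sample mitochondrial RNA only in part, and the values below are levels in the poly(A) selected fraction. In whole pistils, a change in the number of cells of a type and a change in RNA per cell cannot be told apart.

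Mitochondrial genes held 182772 counts over the 24 libraries, or 0.0344% of all counts, against 0.0108% on chloroplast genes. A library gave 3867 to 16323 mitochondrial counts from a total of 18379748 to 30184035. RRN18 and RRN26, the genes of the small and large ribosomal RNAs, held 82% of the mitochondrial counts, and 88.9% together with ORF107A. By role, the 3 rRNA genes held 82.2%, the 84 ORFs 11.1%, the 14 genes and gene pieces of complex I 2.02%, the 7 ribosomal protein genes 1.81%, the 3 genes of complex IV 1.09%, the 6 of ATP synthase 0.759%, the 5 of cytochrome c maturation 0.606% and matR with mttB 0.254%. The 27 tRNA genes held 0.108%, and 7 of them had at least 10 counts. COB, cytochrome b of complex III, had 2 counts in all. The comparisons cover the 33 members that passed the filter on low counts, which asked for about 0.468 CPM (here scaled by the library total) in at least 4 libraries. Of these, 6 (ORF294, ORF204, ORF113, ORF107H, ORF110B and CCMFC) would not have passed without the group where they were highest, so their calls against it are given as a description. By role, the 33 were 3 rRNA genes, 8 genes and gene pieces of complex I, 2 genes of complex IV and 2 of ATP synthase. The others were 2 of cytochrome c maturation, 3 ribosomal protein genes, matR and 12 ORFs. NAD1B and NAD1C are pieces of NAD1, and NAD5A, NAD5B and NAD5C of NAD5, so pieces of 1 gene are counted separately below.

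Col-0 at nAT differed from the other groups across the whole transcriptome, which touches every comparison with it. The mean length of the gene a count fell on was 2065 to 2220 bases in the other 20 libraries and 1612 to 1804 bases in those of Col-0 at nAT, and the TMM normalization factors were 0.996 to 1.093 against 0.675 to 0.797. The spread between replicates, as chi-square over degrees of freedom for a pair of libraries, was 1.73 to 11.4 in the other groups and 3.05 to 55.6 in Col-0 at nAT, where replicate 2 was farthest from the rest. The summed level of 7 carpel and ovule markers was 435 to 461 CPM (counts scaled by the TMM library size) in phyB at hAT and 522 to 529 CPM at nAT. It was 421 to 447 against 498 to 545 CPM in 35S::PIF4, and 446 to 471 against 501 to 557 CPM in Col-0. The sum was thus lower at hAT in every genotype, without overlap. CRC, 1 of these markers, ran from 2.96 to 52.2 CPM over the libraries. Of 5 tapetum markers, A9, ATA7 and MS2 were at no more than 0.328 CPM in any library. The summed level of the 5 was 15.2 to 28.6 CPM in the other groups and 3.87 to 5.82 CPM in Col-0 at nAT. That of 2 pollen markers was 39 to 132 CPM against 21.1 to 40.4 CPM, and that of 2 petal and stamen markers 29.1 to 69.6 CPM against 75.8 to 102 CPM. RBCS1A, the leaf marker, was at 2630 to 4200 CPM against 7540 to 9430 CPM. The part of these differences in the results below was not tested. As a check of the lines, PIF4 was at 3.55 to 5.17 CPM in 35S::PIF4 at hAT and 5.71 to 6.39 CPM at nAT, at 2.46 to 4.45 CPM in the phyB libraries, which overlap those of 35S::PIF4 at hAT, and at 1.21 to 2.82 CPM in those of Col-0. PHYB was still transcribed in the phyB libraries, at 59.9 to 82.4 CPM against 52.7 to 107 CPM in Col-0.

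Per kilobase of gene, RRN18 had the highest mean level over the 24 libraries, at 91.5 CPM per kb. ORF107A followed at 79.5 CPM per kb, above RRN26 at 49.6 CPM per kb. ORF111D was at 10.2, ORF149 at 6.96 and RRN5, the 5S rRNA gene, at 6.55 CPM per kb. The highest protein genes of known function on this scale were NAD4L and NAD9, subunits of complex I, at 3.68 and 2.93 CPM per kb, then RPL16 at 2.66, RPS3 at 2.38 and CCMB at 2.38 CPM per kb. COX2 and COX1, catalytic subunits of cytochrome c oxidase, were at 1.95 and 1.50 CPM per kb. NAD5B is listed as a piece of only 22 bases, so its value per length has no use here. ORF107A lies 502 bases from RRN26 on the opposite strand (positions 11918 to 12241 of the mitochondrial genome in the count table, RRN26 at 8848 to 11415). ORF111D (360717 to 361052) ends 9 bases before RRN5, which lies 170 bases before RRN18, all on the same strand. ORF149 and ORF275 flank NAD5B, at distances of 186 and 293 bases. Several genes overlap: RPL16 and RPS3 share 134 bases, and MATR lies inside the span of the NAD1C piece. Whether reads were counted by strand is not stated, so counts of overlapping or antisense neighbours are uncertain. ATP6-1 and ATP6-2, both genes for subunit a of ATP synthase, had 1 and 744 counts, and since they share a long stretch of sequence the split between them is uncertain.

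Many mitochondrial genes have an exact copy in the nucleus, since chromosome 2 of Col-0 carries a large insertion of mitochondrial DNA. The first 90 coding bases of 4 genes are given to show the contrast, from RefSeq TAIR10.1, 5′ to 3′. Capitals mark a stretch that recurs without a mismatch on chromosome 2, and lower case marks a stretch with no match of 20 bases or more elsewhere in the nuclear and organelle genomes.
COB (Mt:182769-182858, minus strand; copy at chr2:3450863-3450952): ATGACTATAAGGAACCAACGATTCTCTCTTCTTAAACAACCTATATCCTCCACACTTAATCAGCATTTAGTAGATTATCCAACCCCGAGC
COX3 (Mt:330684-330773, minus strand; copy at chr2:3312562-3312651): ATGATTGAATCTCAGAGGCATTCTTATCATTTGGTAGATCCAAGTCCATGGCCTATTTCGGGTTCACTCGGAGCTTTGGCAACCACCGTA
COX1 (Mt:116256-116345, minus strand): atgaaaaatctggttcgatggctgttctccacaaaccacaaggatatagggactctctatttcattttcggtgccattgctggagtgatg
NAD9 (Mt:24665-24754, plus strand): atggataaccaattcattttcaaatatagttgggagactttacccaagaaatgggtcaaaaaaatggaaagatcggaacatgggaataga

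These mitochondrial positions are those of the RefSeq sequence, which differs from the one in the count table: of 30 genes matched by symbol, 0 had the same start and end. For the same 30 genes, windows of 150 bases were searched for exact copies elsewhere in the genome. The 8 protein genes with fewer than 20% of windows copied (COX1, COX2, NAD9, NAD4L, ATP4, CCMB, RPS3 and RPL16) had 518 to 2105 counts each, a median level of 2.38 CPM per kb (1.50 to 3.68), and all 8 passed the filter. The 20 protein genes with more than 60% of windows copied had 0 to 437 counts, a median level of 0.130 CPM per kb (0 to 0.651), and 4 of them passed. The 4 were MATR, NAD7, RPL2 and CCMFC. Of these 20, 14 were copied throughout. Genes with few and with many windows copied did not overlap in level per kb. How reads that fit more than 1 place were counted is not stated, and its part in these levels was not tested. In the insertion on chromosome 2, the nuclear copy of COB (AT2G07727) had 324 counts against 2 on mitochondrial COB. The copies of COX3 (AT2G07687) and ATP1 (AT2G07698) had 100 and 657 counts, against 17 and 24 on the mitochondrial genes. The copies of NAD3 and RPS12 had 82 and 62 counts, against 58 and 60.

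**Figure D1:**
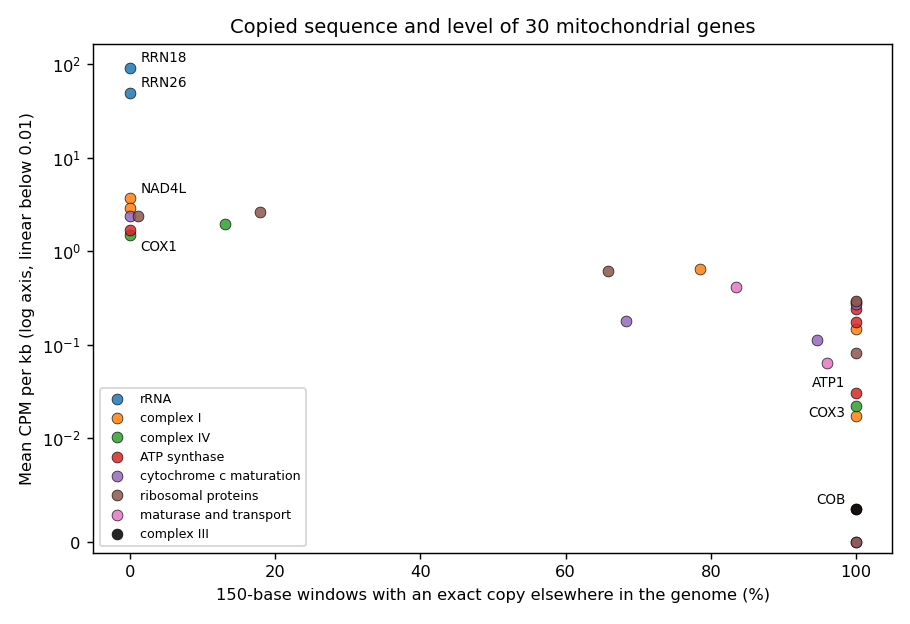
Percent of 150-base windows of a gene that have an exact copy elsewhere in the genome (x axis) against its mean level in CPM per kb over 24 libraries (y axis, logarithmic, linear below 0.01), one point for each of 30 mitochondrial genes, coloured by role. Genes with fewer than 20% of windows copied sit at 1.50 CPM per kb or above, and those with more than 60% at 0.651 CPM per kb or below.

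The share of a library on mitochondrial genes was highest in Col-0 at nAT. It was 0.0244% ± 0.0081 in phyB at hAT and 0.0311% ± 0.00379 in phyB at nAT, 0.0374% ± 0.00491 in 35S::PIF4 at hAT and 0.0285% ± 0.00415 in 35S::PIF4 at nAT, and 0.0287% ± 0.00548 in Col-0 at hAT and 0.0605% ± 0.0141 in Col-0 at nAT (SD, n = 4 each). The 4 Col-0 nAT libraries, at 0.0457%, 0.0520%, 0.0761% and 0.0684%, lay above all 20 others, which ranged from 0.0175% to 0.0420%. In Col-0 the share at hAT was 0.478 times that at nAT, without overlap (exact permutation test, two-sided, p = 0.0286, the smallest that 4 against 4 libraries allow, and 0.0667 adjusted over 7 comparisons). At nAT, phyB and 35S::PIF4 had 0.522 and 0.477 times the share of Col-0, again without overlap and with the same exact p. In 35S::PIF4 the share at hAT was 1.31 times that at nAT (exact p = 0.0571, adjusted 0.1), and in phyB 0.757 times (exact p = 0.257, adjusted 0.3). None of the 7 comparisons of the whole share passed after adjustment. With so few libraries, whether a comparison passes depends on how many of the 7 reach the smallest exact p. The same holds for the shares below.

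The rRNA genes weigh most in that share, and the other mitochondrial genes gave a different order. Without the 3 rRNA genes, the share was 0.00452% ± 0.000761 in phyB at hAT and 0.00491% ± 0.000441 at nAT, 0.00842% ± 0.000582 in 35S::PIF4 at hAT and 0.00456% ± 0.000586 at nAT, and 0.00591% ± 0.000705 in Col-0 at hAT and 0.00916% ± 0.00113 at nAT (SD, n = 4 each). It was 1.86 times higher at hAT than at nAT in 35S::PIF4, and 0.645 times as high in Col-0, without overlap in either (exact permutation p = 0.0286, adjusted 0.04, in both). In phyB hAT and nAT overlapped (0.913 times, exact p = 0.371). At hAT, 35S::PIF4 had 1.43 times the share of Col-0 (adjusted exact p = 0.04), and at nAT phyB and 35S::PIF4 had 0.537 and 0.497 times (adjusted exact p = 0.04 for both). The rRNA genes took 77.3% ± 1.65 of mitochondrial counts in 35S::PIF4 at hAT and 84.0% ± 0.325 at nAT, and 79.2% ± 1.52 in Col-0 at hAT and 84.6% ± 1.79 at nAT (SD, n = 4 each). The chloroplast share, set beside it for scale, was 0.0106% ± 0.00162 in 35S::PIF4 at hAT and 0.0101% ± 0.00115 at nAT (exact p = 0.6), so its 35S::PIF4 libraries overlapped, and 0.542 times as high at hAT as at nAT in Col-0 (adjusted exact p = 0.04). A library showed a count for 73 to 84 of the 152 genes in 35S::PIF4 at hAT, 48 to 60 in 35S::PIF4 at nAT and 55 to 76 in the other groups.

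**Figure D2:**
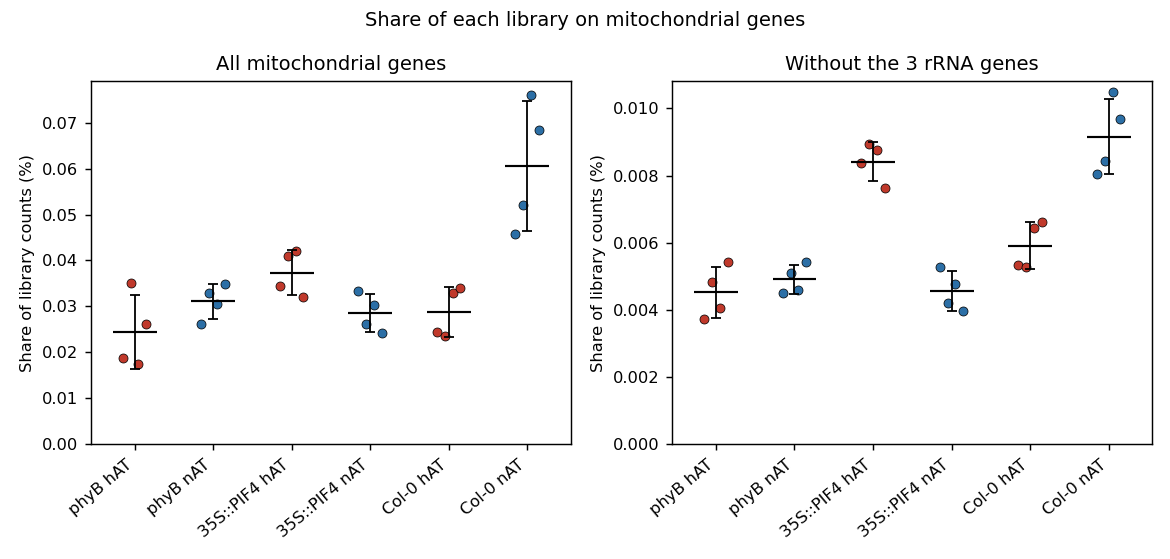
Share of library counts on all 152 mitochondrial genes (left) and on those other than the 3 rRNA genes (right), in percent, for each of 24 libraries. Red points are hAT libraries and blue points nAT libraries, with the mean (line) and SD (bar) of 4. On the left the 4 Col-0 nAT libraries lie above all others; on the right the 4 libraries of 35S::PIF4 at hAT, at 0.00763% to 0.00894%, lie above those of 35S::PIF4 at nAT and of Col-0 at hAT.

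In Col-0, hAT against nAT, RRN18, RRN26, 7 of 12 ORFs and COX1 were lower, and the other protein genes of known function and RRN5 were not called. Of 33 members tested, 0 were called higher and 10 lower at an edgeR adjusted p under 0.05 with a log2 fold change of at least 1. That is 30.3% of them, where 37.6% of all 21312 tested genes were called in this comparison, 24.2% higher and 13.4% lower. The 10 include ORF294 and ORF204, which would not have passed the filter without Col-0 at nAT. The members had a median log2 fold change of -0.85, against 0.14 over all genes tested. RRN26 had 64.9, 64.4, 97.4 and 92.5 CPM at hAT, against 202, 291, 335 and 312 CPM at nAT. RRN18 had 110, 104, 147 and 160 CPM at hAT, against 289, 354, 487 and 450 CPM at nAT. The groups did not overlap for either rRNA, and the log2 fold changes were -1.84 (SE 0.21, edgeR adjusted p = 1.05e-08) and -1.60 (SE 0.19, edgeR adjusted p = 2.05e-08). RRN5 was at 1.11 ± 0.14 CPM at hAT and 1.19 ± 0.39 CPM at nAT (SD, n = 4 each), which did not pass (edgeR adjusted p = 0.836).

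ORF107A, the ORF next to RRN26, also fell. It had 15.9, 15.9, 23.0 and 21.5 CPM at hAT, against 46.8, 66.0, 67.7 and 63.7 CPM at nAT, a log2 fold change of -1.68 (SE 0.16, edgeR adjusted p = 2.29e-10). ORF275 had 0.930 to 1.82 CPM at hAT, against 3.23 to 5.73 CPM at nAT (log2 fold change -1.79, SE 0.27, edgeR adjusted p = 1.38e-06). ORF240A had 0.928, 1.21, 0.930 and 0.968 CPM at hAT, against 2.91, 2.42, 2.16 and 2.72 CPM at nAT (log2 fold change -1.34). In all of these the lowest nAT library lay above the highest hAT library. ORF294 would not have passed the filter without the Col-0 nAT libraries, so that it had to differ, and its values are a description: 0.0774 to 0.232 CPM at hAT, against 0.693 to 1.69 CPM at nAT (log2 fold change -2.67, SE 0.66). ORF262 fell by 1.18 on the log2 scale, as did ORF106F by 1.38 and ORF204 by 1.13, both chosen after their values were seen, which makes 7 of 12 ORFs. With an offset for gene length ORF262 was at -0.92, and without Col-0 nAT replicate 2 at -0.97, and both times it lost the call.

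Among protein genes of known function, COX1 alone was called. It had 1.51, 1.77, 1.73 and 2.98 CPM at hAT, against 3.67, 2.58, 6.27 and 4.19 CPM at nAT, with overlapping groups and a log2 fold change of -1.07 (SE 0.27, edgeR adjusted p = 7.54e-04). Without Col-0 nAT replicate 3 the value was -0.81 and the call was lost. None of 8 complex I genes and gene pieces, 2 of ATP synthase or 2 of cytochrome c maturation was called. Nor was any of 3 ribosomal protein genes, nor matR. In complex I the log2 fold changes ran from -0.91 (NAD1B) to 0.45 (NAD5A). COX2 was at 1.37 ± 0.12 CPM at hAT and 2.50 ± 0.44 CPM at nAT (SD, n = 4 each), without overlap but under the fold threshold (log2 fold change -0.86). CCMB, a transporter subunit for cytochrome c maturation, was at 1.67 ± 0.30 and 1.30 ± 0.50 CPM (log2 fold change 0.35, edgeR adjusted p = 0.203). With an offset for gene length 20 members were lower, and with library totals in place of TMM 5 were lower, since that scaling moved the median of all genes by 0.52 (with it 8217 genes were called higher and 1026 lower, against 5151 and 2856 with TMM).

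In 35S::PIF4, hAT against nAT, genes of every protein role tested were called higher, and none of the 3 rRNA genes was called. Here 18 of 33 members rose and 0 fell (54.5%), where 11.0% of all genes tested were called, 8.5% higher and 2.48% lower, and the median log2 fold change was 1.22 for members and -0.01 for all genes. The rises took in 5 of 8 complex I genes and gene pieces, 2 of 2 of complex IV and 2 of 2 of cytochrome c maturation. They also took in 2 of 3 ribosomal protein genes, 1 of 2 of ATP synthase, matR and 5 of 12 ORFs. Of the 18, CCMFC, NAD5B and ORF110B would not have passed the filter without the hAT libraries of this line. In MATR, RPL2 and CCMFC, 83.5%, 65.9% and 100% of windows have an exact copy on chromosome 2, so the origin of their reads is uncertain. CCMB had 2.86, 3.28, 2.50 and 3.11 CPM at hAT, against 0.800, 0.632, 0.699 and 0.650 CPM at nAT, without overlap (log2 fold change 2.08, SE 0.24, edgeR adjusted p = 7.34e-08). CCMFC, a subunit of the heme lyase, was at 0.688 ± 0.355 CPM at hAT and 0.118 ± 0.114 CPM at nAT (SD, n = 4 each; log2 fold change 2.58, SE 0.59).

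Both catalytic subunits of cytochrome c oxidase rose. COX1 had 3.64, 2.95, 3.25 and 3.02 CPM at hAT, against 1.05, 1.10, 1.44 and 1.44 CPM at nAT, a log2 fold change of 1.36 (SE 0.28, edgeR adjusted p = 2.09e-04). COX2 had 2.03, 2.33, 3.21 and 2.61 CPM at hAT, against 0.927, 0.865, 1.20 and 0.929 CPM at nAT, a log2 fold change of 1.37 (SE 0.20, edgeR adjusted p = 3.18e-06). Neither gene overlapped between the groups. In complex I, the NADH dehydrogenase that feeds electrons into the chain, NAD4L, NAD1C, NAD1B, NAD5A and NAD5B rose by 1.25 to 1.50 on the log2 scale, NAD1B and NAD5A with overlapping groups. NAD9 (0.66), NAD5C (0.64) and NAD7 (-0.20) were not called. RPS3, a protein of the small ribosomal subunit, had 7.06, 7.31, 7.12 and 5.31 CPM at hAT, against 3.45, 1.86, 3.42 and 2.83 CPM at nAT (log2 fold change 1.22, SE 0.19). MATR rose by 1.21 without overlap, and RPL2 by 1.63 and ATP6-2 by 1.23 with overlapping groups.

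Of the ORFs, ORF240A had 3.00, 1.58, 1.98 and 2.20 CPM at hAT, against 0.463, 0.566, 0.583 and 0.279 CPM at nAT, without overlap (log2 fold change 2.17, SE 0.26, edgeR adjusted p = 1.53e-07). ORF111D had 4.15, 2.70, 3.16 and 2.38 CPM at hAT, against 0.674, 1.50, 0.699 and 1.49 CPM at nAT (log2 fold change 1.49, SE 0.25). With an offset for gene length its value was 0.47 and the call was lost. ORF262 rose by 1.75, and ORF113, chosen after its values were seen, by 1.60. The 3 rRNA genes were not called, with log2 fold changes of 0.24 for RRN18, 0.06 for RRN26 and 0.93 for RRN5. RRN5 was under the fold threshold only (SE 0.32, edgeR adjusted p = 0.0176), at 0.821 ± 0.16 CPM at hAT and 0.429 ± 0.137 CPM at nAT (SD, n = 4 each), without overlap. RRN26 had 91.2, 117, 127 and 90.5 CPM at hAT, against 124, 92.6, 104 and 87.1 CPM at nAT, so that the groups overlapped. ORF107A likewise had 20.6 to 25.9 CPM at hAT and 18.5 to 25 CPM at nAT (edgeR adjusted p = 0.535).

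**Figure D3:**
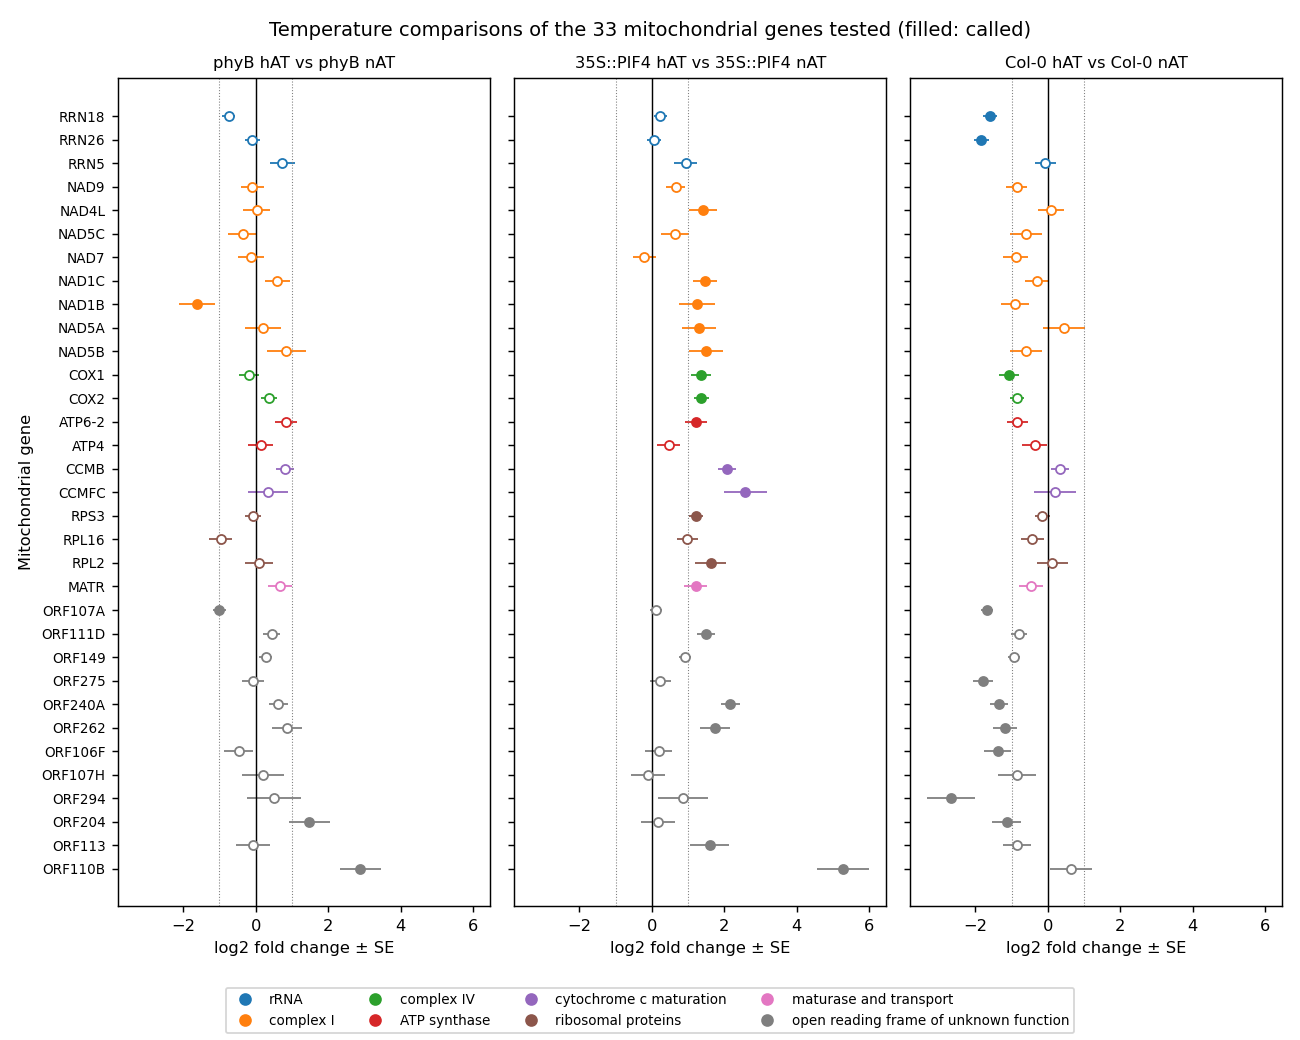
Log2 fold change (hAT over nAT, x axis) with its standard error for each of the 33 mitochondrial genes tested (rows, ordered by role), in phyB (left), 35S::PIF4 (middle) and Col-0 (right). Filled points were called, dotted lines mark a log2 fold change of 1 in either direction, and colours give the role. In 35S::PIF4 18 filled points lie to the right and none to the left; in Col-0 10 lie to the left and none to the right.

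In phyB, hAT against nAT, few mitochondrial genes changed. Of 33 members 2 were higher and 2 lower (12.1%), where 8.09% of all genes tested were called, with a median log2 fold change of 0.20 for members. ORF107A had 8.85, 13.1, 6.78 and 10.6 CPM at hAT, against 16.5, 19.2, 17.9 and 24.5 CPM at nAT, without overlap. Its log2 fold change of -1.0 (SE 0.17, edgeR adjusted p = 3.34e-05) sat at the threshold. It was not called without phyB hAT replicate 3 (-0.84), nor in DESeq2 (-0.99). RRN18 was at 90.9 ± 32 CPM at hAT and 153 ± 21 CPM at nAT, with overlap (log2 fold change -0.75, edgeR adjusted p = 0.00217, under the fold threshold), while RRN26 was at 92.7 ± 39 and 98.8 ± 12 CPM (SD, n = 4 each; -0.09). Replicate 2 was the highest phyB hAT library for both, at 135 and 145 CPM. Leaving out 1 library in turn gave 2 to 6 called members, the lowest without phyB hAT replicate 3 and the highest without phyB hAT replicate 2. NAD1B, a piece of the trans-spliced NAD1, had 0.135, 0.218, 0.284 and 0.141 CPM at hAT, against 0.853, 0.447, 0.633 and 0.592 CPM at nAT (log2 fold change -1.62, SE 0.50, edgeR adjusted p = 0.00994), and these did not overlap. COX1 (-0.18), COX2 (0.36) and CCMB (0.80) were not called in phyB.

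ORF110B and ORF204, chosen after their values were seen, were the members called higher in phyB. ORF204 was at 0.279 ± 0.0514 CPM at hAT and 0.0984 ± 0.0573 CPM at nAT (SD, n = 4 each; log2 fold change 1.48, SE 0.56, edgeR adjusted p = 0.0349). ORF110B (positions 183111 to 183443) passed the filter only through the hAT libraries of phyB and 35S::PIF4, where it is high, so that its values are a description. It had 51 counts in the 4 phyB hAT libraries and 6 in those at nAT, a ratio of rates of 7.95 (95% counting interval 3.41 to 22.7). In 35S::PIF4 it had 53 counts at hAT and 1 at nAT, a ratio of 60.3 (10.4 to 2430). In Col-0 it had 25 counts at hAT and 10 at nAT, a ratio of 1.55 (0.719 to 3.62). By library it had 0.366 to 0.848 CPM in 35S::PIF4 at hAT, against 0.0421 CPM in 1 library and 0 in the other 3 at nAT, and 0.422 to 0.697 CPM in phyB at hAT, against 0 to 0.137 CPM at nAT. The hAT and nAT libraries thus did not overlap in either line and did in Col-0, at 0.155 to 0.372 against 0 to 0.272 CPM. The intervals cover counting error only. The fitted log2 fold changes, 2.89 in phyB, 5.28 in 35S::PIF4 and 0.63 in Col-0, depend on how a count near 0 is handled.

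**Figure D4:**
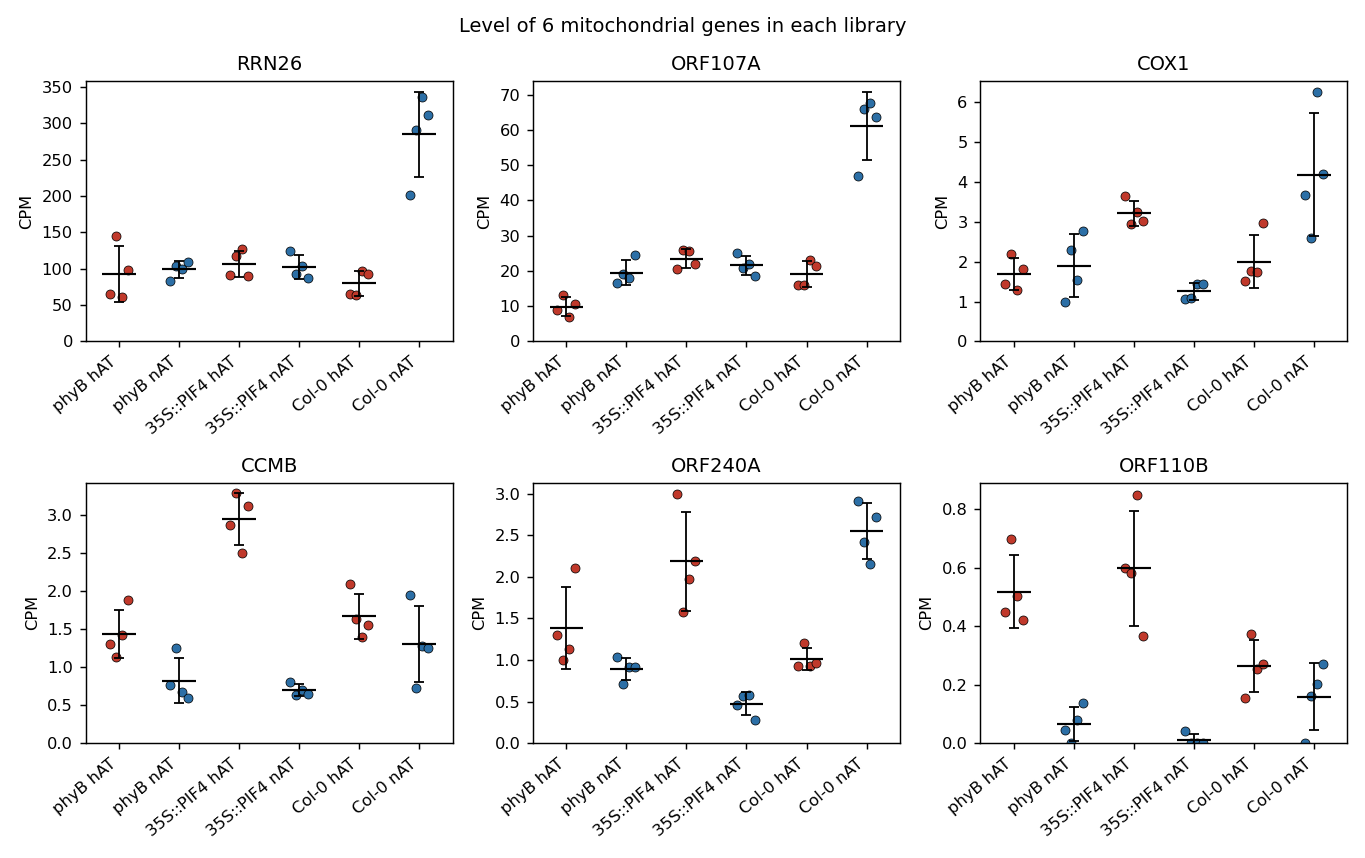
Level in CPM of RRN26, ORF107A, COX1, CCMB, ORF240A and ORF110B in each of 24 libraries, by group. Red points are hAT libraries and blue points nAT libraries, with the mean (line) and SD (bar) of 4. RRN26 and ORF107A stand out in Col-0 at nAT, and CCMB in 35S::PIF4 at hAT, where its 4 libraries are at 2.50 to 3.28 CPM.

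At nAT, both lines had less of most mitochondrial transcripts than Col-0. In phyB against Col-0, 0 members were higher and 18 lower of 33 (54.5%), where 33.1% of all genes tested were called. In 35S::PIF4 against Col-0, 0 were higher and 23 lower (69.7%), where 31.4% of all genes tested were called. Both comparisons share the 4 Col-0 nAT libraries with each other and with hAT against nAT in Col-0. With library totals in place of TMM, 14 of 33 members were lower in phyB and 16 in 35S::PIF4, and 0 were higher. With that scaling, 7231 of all genes were called higher and 810 lower in phyB, and 6450 and 1014 in 35S::PIF4. All 3 rRNA genes were lower in both: RRN18 fell by 1.37 in phyB and 1.55 in 35S::PIF4 on the log2 scale, RRN26 by 1.53 and 1.48, and RRN5 by 1.52 and 1.44. Of the 12 ORFs, 11 were lower in phyB and 11 in 35S::PIF4. ORF111D had 3.19, 2.50, 2.10 and 1.96 CPM in phyB, against 6.93, 6.29, 7.61 and 6.09 CPM in Col-0 (log2 fold change -1.47, SE 0.22). In 35S::PIF4 at nAT, at 0.674 to 1.50 CPM, its log2 fold change was -2.61 (SE 0.24, edgeR adjusted p = 2.93e-10). No library of either line reached the lowest of Col-0. ORF262 fell by 2.28 in phyB and 2.78 in 35S::PIF4, ORF240A by 1.51 and 2.40, ORF275 by 1.91 and 1.80, and ORF294 by 2.41 and 2.31. ORF294 was at -3.26 in phyB without phyB nAT replicate 1 and at -2.90 in 35S::PIF4 without 35S::PIF4 nAT replicate 1. The 18 lower in phyB include 4 ORFs (ORF294, ORF204, ORF113 and ORF107H) that would not have passed the filter without the Col-0 nAT libraries, and the 23 in 35S::PIF4 include 3 of these, ORF107H not among them.

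Protein genes of known function split at nAT. COX1 and COX2 were lower in both lines, by 1.15 and 1.68 in phyB and by 1.74 and 1.34 in 35S::PIF4 on the log2 scale. ATP6-2 had 0.494, 1.16, 0.554 and 1.05 CPM in phyB, against 2.70, 2.74, 2.22 and 2.45 CPM in Col-0, without overlap (log2 fold change -1.63, SE 0.30). In 35S::PIF4 its log2 fold change was -1.72 (SE 0.30). Of 8 complex I genes and gene pieces, 1 was lower in phyB (NAD5B) and 4 in 35S::PIF4 (NAD4L, NAD1C, NAD1B and NAD5B). None was higher in either line. RPS3 was at 3.26 ± 0.25 CPM in phyB, 2.89 ± 0.74 CPM in 35S::PIF4 and 4.14 ± 1.35 CPM in Col-0 (SD, n = 4 each), with overlap, and was not called. RPL16, ATP4, NAD9 and NAD7 were not called in either line. Without Col-0 nAT replicate 2, the library farthest from the others of its group, 21 members were lower in phyB and 23 in 35S::PIF4, and 9 were lower in Col-0 at hAT. COX1 in phyB was at -0.90 and not called without Col-0 nAT replicate 3, and COX2 in 35S::PIF4 was at -0.84 and not called with an offset for gene length.

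At hAT few members were called between the lines and Col-0. In phyB against Col-0, 0 members were higher and 1 lower (3.03%), where 4.78% of all genes tested were called. The gene was NAD1B, at 0.194 ± 0.0708 CPM in phyB and 0.677 ± 0.155 CPM in Col-0 (SD, n = 4 each; log2 fold change -1.71, SE 0.49, edgeR adjusted p = 0.00902). With an offset for gene length 1 member was called and it was higher, not lower. ORF107A was at 9.84 ± 2.7 CPM in phyB and 19.1 ± 3.7 CPM in Col-0 (SD, n = 4 each), just under the fold threshold (-0.97). In 35S::PIF4 against Col-0, 2 members were higher and 0 lower (6.06%), where 3.08% of all genes tested were called. Called or not, 28 members had a positive fold change and 5 a negative one. The median log2 fold change was 0.51 for members and -0.02 for all genes. ORF240A had 3.00, 1.58, 1.98 and 2.20 CPM in 35S::PIF4, against 0.928, 1.21, 0.930 and 0.968 CPM in Col-0, without overlap (log2 fold change 1.11, SE 0.24, edgeR adjusted p = 0.00115). Without 35S::PIF4 hAT replicate 1 its value was 0.93 and the call was lost. The other called member was ORF110B, at 1.19 (SE 0.42), with overlap. It would not have passed the filter without the 35S::PIF4 hAT libraries, so its call is a description. At the same adjusted p and with no fold threshold, 8 members were higher, among them COX2 (0.89), RPS3 (0.83), CCMB (0.82) and NAD9 (0.80).

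The temperature response was also compared between genotypes. The response of 35S::PIF4 minus that of Col-0 was tested as an interaction in the same edgeR fit. It was positive and called for 27 of 33 members (81.8%), and none was negative and called. Of all genes tested, 31.1% were called, 11.8% higher and 19.4% lower. The 27 include ORF294 and ORF113, which would not have passed the filter without Col-0 at nAT. They also include CCMFC, NAD5B and ORF110B, which would not have passed without 35S::PIF4 at hAT. A high level in either group raises this difference, so these calls are a description. The interaction was 3.51 on the log2 scale for ORF240A (SE 0.36, edgeR adjusted p = 3.73e-09) and 2.42 for COX1 (SE 0.39). For COX2 it was 2.22 (SE 0.29), for RRN26 1.90 (SE 0.29) and for RRN18 1.84 (SE 0.26). ATP4, NAD5C, NAD7, NAD5A, ORF107H and ORF204 were not called. For the response of phyB minus that of Col-0, 12 members were positive and called and 0 negative (36.4%). Of all genes tested, 32.2% were called, 10.6% higher and 21.6% lower. The 12 include ORF294, at 3.18, and ORF204, which would not have passed the filter without Col-0 at nAT. ORF110B, also called, would not have passed without phyB at hAT. A high level in either group raises this difference, so these calls are again a description. Also among the 12 were RRN26 at 1.74 (SE 0.29), ORF240A at 1.96 (SE 0.35), ATP6-2 at 1.67 (SE 0.41) and COX2 at 1.22 (SE 0.31). RRN18 was at 0.85, under the fold threshold. Both interactions rest on the Col-0 nAT libraries. With library totals in place of TMM, the counts were 21 for 35S::PIF4 and 7 for phyB, all positive.

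Nuclear genes for the same complexes were set beside the mitochondrial ones, from lists of known subunits. In Col-0, hAT against nAT, 14 of 20 nuclear complex I genes were lower and 0 higher, with 4 of 6 for complex II, 5 of 7 for complex IV and 5 of 9 for ATP synthase, while complex III had 4 lower and 1 higher of 9. Of all genes tested, 13.4% were called lower and 24.2% higher. The medians were -1.20 for complex I, -1.44 for complex IV and -1.07 for ATP synthase, and those of their mitochondrial members -0.61, -0.96 and -0.60. The largest fall in complex I was that of TYKY-2 (-2.17, SE 0.17), an iron-sulfur subunit. In 35S::PIF4, hAT against nAT, 0 of 20 nuclear complex I genes, 0 of 7 of complex IV and 0 of 9 of ATP synthase were called, with medians of -0.31, -0.36 and -0.40. The mitochondrial medians there were 1.27, 1.37 and 0.85, and the difference between the lists was not tested. In phyB none of these nuclear genes was called outside complex III, where QCR7-2, a small subunit, rose by 1.66. QCR7-2 also rose by 5.18 in 35S::PIF4, at 47.3 ± 4.34 CPM at hAT and 1.31 ± 0.316 CPM at nAT (SD, n = 4 each), and by 1.46 in Col-0.

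**Figure D5:**
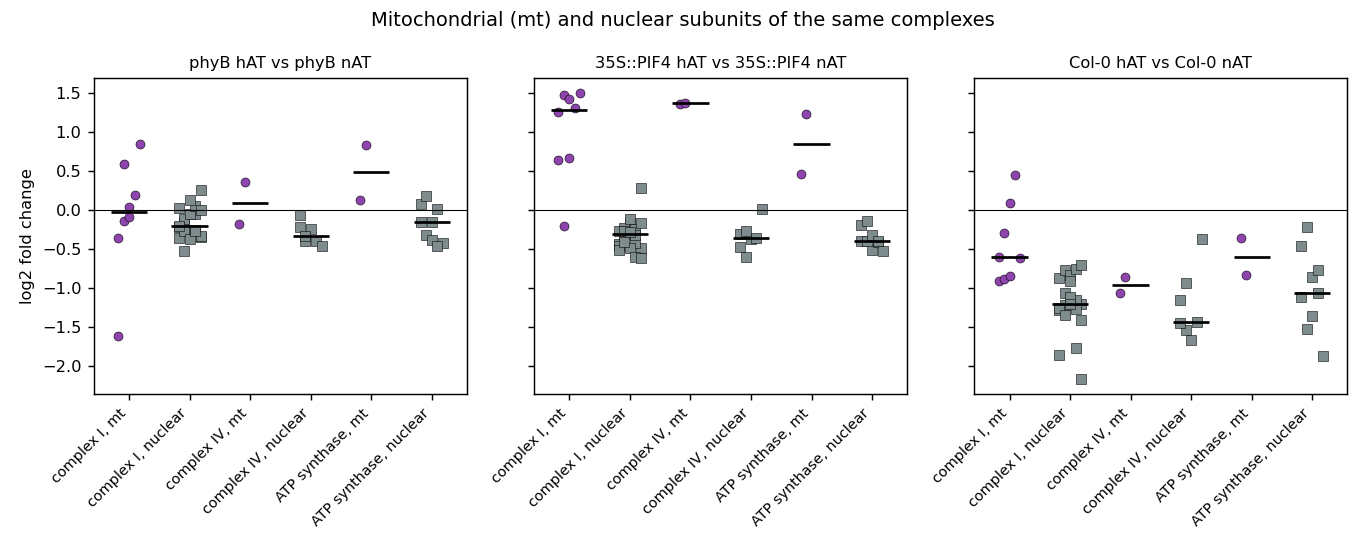
Log2 fold change (hAT over nAT, y axis) of mitochondrial (mt, purple circles) and nuclear (grey squares) genes for complex I, complex IV and ATP synthase. Panels are phyB (left), 35S::PIF4 (middle) and Col-0 (right), with 1 point per gene or gene piece tested and the median as a line. In 35S::PIF4 the mitochondrial medians lie at 0.85 to 1.37 and the nuclear medians at -0.40 to -0.31.

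Nuclear genes for making and keeping mitochondrial RNA and DNA were set beside these, again from lists of known genes. In Col-0 RPOTM, the main mitochondrial RNA polymerase, was at 65.8 ± 3.25 CPM at hAT and 15.4 ± 2.52 CPM at nAT (SD, n = 4 each; log2 fold change 2.09, SE 0.087, edgeR adjusted p = 2.63e-17). RPOTMP, the polymerase shared with chloroplasts, rose by 1.82, and PNP2, the mitochondrial polynucleotide phosphorylase, was at 0.85, under the fold threshold. In all, 5 of 15 genes for RNA synthesis, splicing and decay were higher and 0 lower, with MTSF1, a transcript stability factor, highest at 2.23, and 3 of 7 genes for DNA maintenance were higher, where 24.2% of all genes tested were called higher and 13.4% lower. With an offset for gene length these counts were 0 higher and 1 lower for RNA, and 1 higher for DNA. In 35S::PIF4, hAT against nAT, RPOTM was at 0.05, RPOTMP at -0.19 and PNP2 at -0.48, and 0 of 15 were called. AOX1A, the alternative oxidase induced when the respiratory chain is impaired, was at 8.80 ± 0.878 CPM at hAT and 4.21 ± 0.607 CPM at nAT in 35S::PIF4 (SD, n = 4 each; log2 fold change 1.06). It also rose in phyB, by 1.26, and was at -0.35 in Col-0. HSP23.5, a mitochondrial small heat shock protein, rose by 6.11 in 35S::PIF4 and 1.25 in phyB, and these 2 were the genes called of 7 in the stress list in each line, where 8.5% of all genes tested were called higher in 35S::PIF4 and 4.63% in phyB.

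The nuclear copy of RPL2 (AT2G07715), chosen after its values were seen, had values unlike those of the mitochondrial gene. It was at 2.93 ± 0.274 CPM in Col-0 at hAT and 13.7 ± 6.81 CPM at nAT (SD, n = 4 each; log2 fold change -2.21, SE 0.22, edgeR adjusted p = 5.63e-10), while mitochondrial RPL2 was at 0.687 ± 0.13 and 0.608 ± 0.35 CPM (log2 fold change 0.13, edgeR adjusted p = 0.79). In 35S::PIF4 the nuclear copy was at -0.21 (edgeR adjusted p = 0.471) and mitochondrial RPL2 rose by 1.63. The copy of ATP1 (AT2G07698) had a log2 fold change of 0.99 in 35S::PIF4 at hAT against nAT (edgeR adjusted p = 0.00981, under the fold threshold) and 1.11 in 35S::PIF4 against Col-0 at hAT (edgeR adjusted p = 0.0117). Since stretches of these genes are identical, a read from a copied stretch cannot be placed in 1 of them from its sequence.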

How the data were processed

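Poly(A) RNA of 24 pistil libraries was sequenced, with 18379748 to 30184035 counts each. The deposited values used are raw read counts per gene, which the authors made by trimming with fqtools, mapping to TAIR10 with Araport11 and counting with featureCounts; the aligner, its handling of reads that fit several places and the use of strand are not stated. Deposited gene lengths and positions were used as given (99.85% of 5174 chromosome 2 genes matched RefSeq). The deposited FPKM were not used.

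Counts were tested in R 4.3.3 with edgeR 4.0.16: filterByExpr by group left 21312 of 33055 genes, with TMM normalization, a quasi-likelihood fit of 6 group means (18 residual degrees of freedom), 7 comparisons and 2 interactions, and Benjamini-Hochberg adjustment over all genes tested in each. Called genes had an adjusted p below 0.05 and moved by 1 or more on the log2 scale, as in the study's own criteria. The standard error is the log2 fold change divided by the square root of F. CPM use TMM library sizes. Shares are percent of all counts, compared by exact permutation tests of the difference of mean log2 share. Counting intervals are exact, at 95%, and cover counting error only. The fit and the permutation test were tested on simulated data. Figures used Python 3.11.15 with matplotlib 3.10.9.

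Alternatives were DESeq2 1.42.0, no filter, nuclear genes alone for library sizes, a gene length offset, a replicate block and no fold threshold. Members with at most 10% of windows copied, and each library left out in turn, were also used. Library totals without TMM and members with at least 100 counts were added after seeing the data. So were the rRNA share alone and the TMM library size as denominator. Members and lists were chosen with earlier results of these data known. Genes named are the 12 with the highest mean CPM, up to 3 called rises and 3 falls per comparison reaching 1 CPM in either group, and genes of known product; others are marked as chosen after their values were seen.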

Additional observations from a re-analysis of the deposited data

Results flagged for a closer look

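The response to hAT differed between genotypes by the interaction test for 12 members in phyB against Col-0 and 27 in 35S::PIF4 against Col-0. Some of these members passed the filter on low counts only through the group where they were highest. Among the 12 most abundant members, the response of phyB exceeded that of Col-0, on the log2 scale, by 1.74 for RRN26, 1.24 for ORF111D, 1.20 for ORF149, 1.71 for ORF275, 1.22 for COX2 and 1.67 for ATP6-2. That of 35S::PIF4 exceeded it by 1.84 for RRN18, 1.90 for RRN26, 1.80 for ORF107A, 1.38 for RPS3, 2.29 for ORF111D, 1.85 for ORF149, 2.42 for COX1, 2.03 for ORF275, 1.51 for NAD9, 1.73 for CCMB, 2.22 for COX2 and 2.07 for ATP6-2. All share the Col-0 libraries.

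In 3 of 108 groups of 4 libraries examined, 1 library lay far from the other 3, by Dixon's 95% limit on the gap over the range, where chance gives about 1 in 20. RPS3 in 35S::PIF4 at hAT was at 5.31 CPM in replicate 4 and 7.06 to 7.31 CPM in the others (gap 0.873 of the range). ORF149 in phyB at hAT was at 2.90 CPM in replicate 4 and 1.93 to 2.00 CPM in the others (0.918). ORF240A in Col-0 at hAT was at 1.21 CPM in replicate 2 and 0.928 to 0.968 CPM in the others (0.859).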

How the results depend on the processing

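The 169 checks of the counts of called members gave 133 within 1.5 times the first count, 35 outside and 1 reversed, and 26 of 1116 checks of single named genes lost a call with none reversed. In the order hAT against nAT in Col-0, phyB and 35S::PIF4, the first counts were 10, 4 and 18. Without the filter on low counts they were 20, 7 and 30, with 3 for phyB and 4 for 35S::PIF4 against Col-0 at hAT (first 1 and 2) and 41 for the 35S::PIF4 interaction (first 27). With an offset for gene length Col-0 gave 20 and the phyB interaction 21 (first 12), and the 1 gene called in phyB against Col-0 at hAT was higher, the reverse of the first result. With no fold threshold the counts were 18 for Col-0 and 8 for phyB, and 3 and 8 for phyB and 35S::PIF4 against Col-0 at hAT. A further check kept the 8 searched members with at most 10% of windows copied (RRN18, RRN26, COX1, NAD9, NAD4L, ATP4, CCMB and RPS3). The ORFs, RRN5, ATP6-2 and the pieces of NAD1 and NAD5 were not searched for copies and so were left out. Among the 8 the counts were 3, 0 and 4 for temperature. Against Col-0 at nAT they were 3 for phyB and 4 for 35S::PIF4 (first 18 and 23). They were 0 and 0 at hAT, and 1 and 7 for the phyB and 35S::PIF4 interactions (first 12 and 27). These counts are out of 8 members and the first counts out of 33. Library totals without TMM, chosen after seeing the data, gave 5 for Col-0 and 7 for the phyB interaction. The cause of these shifts was not tested.

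Replicate numbers did not pair the libraries (0 of 7 comparisons had every correlation over 0.1), and the fit with the replicate block gave 1 called member for 35S::PIF4 against Col-0 at hAT and otherwise stayed within 1.5 times. Leaving out 1 library gave 9 to 12, 2 to 6 and 15 to 22 members for temperature in Col-0, phyB and 35S::PIF4, and 1 to 3 and 1 to 2 for phyB and 35S::PIF4 against Col-0 at hAT. With rRNA and tRNA genes left out, the log2 share differences passed (exact permutation, adjusted p = 0.04) at -0.636 in Col-0 and 0.889 in 35S::PIF4 for temperature, -0.897 and -1.01 for phyB and 35S::PIF4 against Col-0 at nAT, and 0.518 for 35S::PIF4 against Col-0 at hAT.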
